A study of Poecilia reticulata with 6 samples.

Results

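The slc12 genes of the guppy (Poecilia reticulata) intestine were taken as every row of the deposited expression table whose gene name, in lower case, begins with slc12a, which gave 7 genes out of 10389 listed. Of these, 1 is not reported here, and the other 6 are described. The intestine was sequenced at 3 salinities, with 2 libraries each at 0‰, 18‰ and 35‰. All libraries came from adult wild-type guppies, and the sources name no strain, sex or exact age. The 0‰ group was the freshwater control, and for the other groups salt was raised in the tanks by 3‰ every 2 days, reaching 35‰ over 24 days, so the effects of salinity and of time in rising salt cannot be told apart. The number of fish or tanks behind a library is not given, so the spread between the 2 libraries of a salinity may be technical, and p-values measure only that spread.

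The slc12 family holds the electroneutral cation-chloride cotransporters, membrane proteins that move chloride together with sodium, potassium or both. Members that use the sodium gradient bring chloride into the cell, and members that carry potassium and chloride alone usually let chloride out. A fish in seawater drinks and takes up salt across the gut wall so that water follows. In marine teleosts the first step of that uptake is carried largely by the cotransporter encoded by slc12a1, which sits in the apical membrane of enterocytes. The WNK kinases and their targets STK39 and OXSR1 are known from mammals to phosphorylate these cotransporters, which activates the sodium-dependent members and inhibits those that carry potassium and chloride alone.

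The table gives TPM, a transcript level scaled for transcript length and library size, so the levels of different genes can be set side by side. Genes that reached a TPM of 1 in 2 or more libraries entered the test, which was limma on log2(TPM + 1), a linear model that shares information on the spread across genes. This filter kept 7897 genes, including 5 of the 7 slc12 genes, of which 4 are described. A further 2, slc12a7b and slc12a5a, were below it and have values but no test. A call required a fold change above 1.5 together with a p under 0.05 after Benjamini-Hochberg adjustment over all genes tested. Because of the added 1, fold changes of genes with low TPM come out too small. TPM keeps no record of read number, so sequencing depth is unknown.

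The listed genes summed to 419412 and 427838 TPM at 0‰, 446532 and 459528 at 18‰, then 481864 and 481529 at 35‰. This sum was thus higher at each higher salinity, without overlap between groups. All 10 markers of intestinal epithelium found in the table passed the filter, and their summed TPM ran from 4018 to 8616 over the 6 libraries. Markers of other tissues and cell types had uneven sums over the libraries. Whether this came from tissue content or from expression per cell was not tested. The 4 markers of exocrine pancreas summed to between 2824 and 11114 TPM at 0‰ and 18‰ but to 10.3 and 94.0 at 35‰. The 4 liver markers reached 443 TPM in replicate 2 at 0‰ and at most 21.1 elsewhere. The 4 leukocyte markers, which include ptprc and coro1a, summed to 655 TPM in replicate 1 at 0‰ and to between 197 and 284 in the other libraries. The 2 markers of lysosome-rich distal enterocytes, ctsl.1 and tcn2, summed to between 821 and 1431 TPM at 0‰ and 18‰ and to 23.2 and 33.0 at 35‰. The 2 skeletal muscle markers summed to 38.2 TPM in replicate 1 at 35‰ and to at most 5.07 in the other libraries. The 5 smooth muscle markers summed to 101 and 129 TPM at 0‰ and to between 159 and 233 at 18‰ and 35‰.

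None of the 4 slc12 genes described and tested was called in any of the 3 comparisons, beside 0.0127% of all genes in 18‰ versus 0‰. The share called over all genes was 0.19% in 35‰ versus 0‰ (0.0127% higher and 0.177% lower) and 0.317% in 35‰ versus 18‰ (0.038% higher and 0.279% lower). Without adjustment, slc12a1 had a limma p-value under 0.05 in 18‰ versus 0‰, and slc12a1 and slc12a8 had one in each of the other comparisons, where 5.93%, 11.3% and 12.5% of all genes did. The genes differed widely in pattern. The slc12a1 libraries stood in the order of salinity with no overlap between groups, and slc12a8 showed the reverse order. The levels of slc12a2 and slc12a9 were at most 3.80 TPM in every library. Across the 4 genes the median fold change as log2 came to −0.11 for 18‰ versus 0‰, to −0.25 for 35‰ versus 0‰ and to −0.14 for 35‰ versus 18‰, and the median over all genes was 0.06, −0.01 and −0.07.

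**Figure D1:**
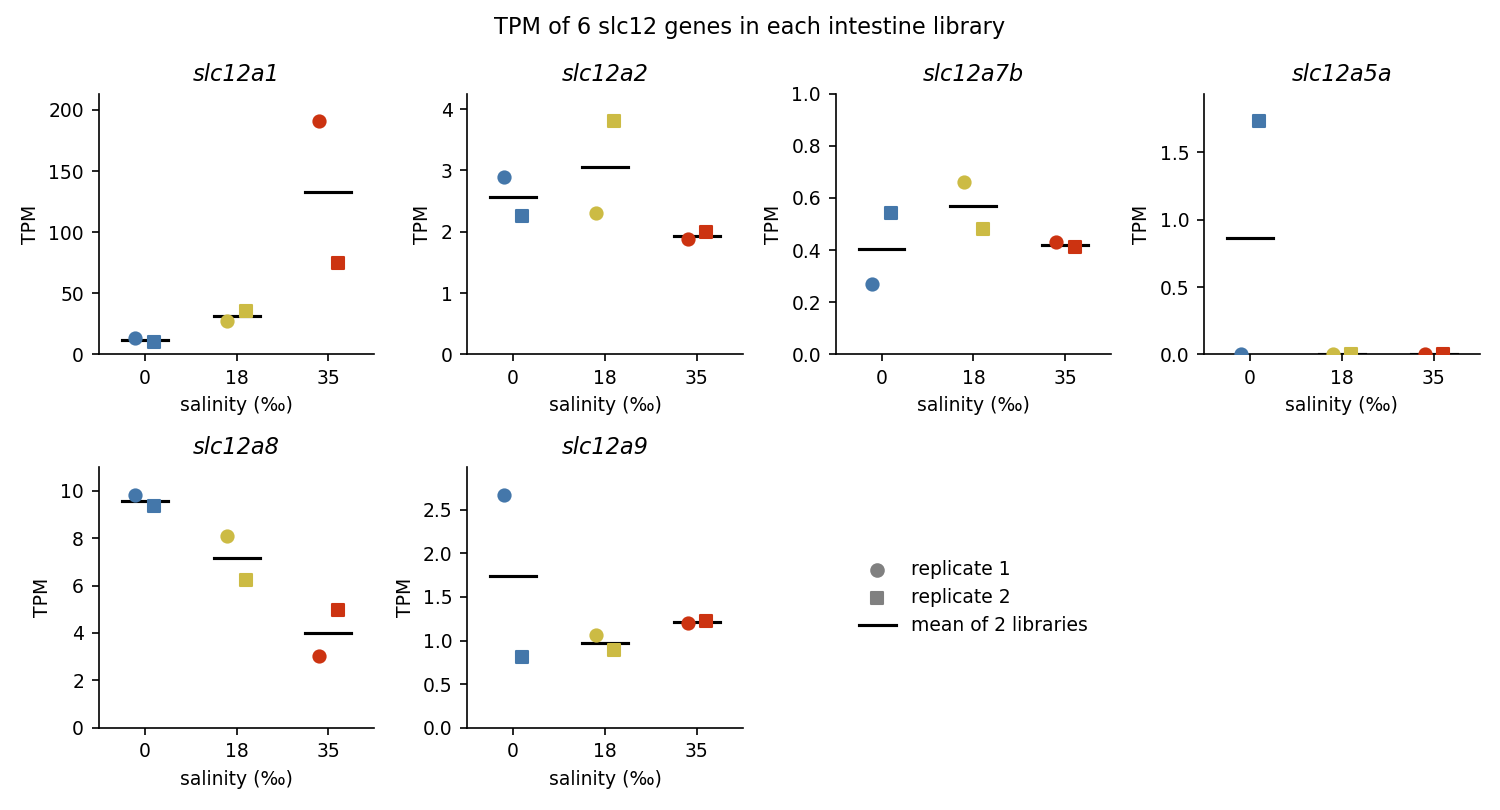
TPM (vertical axis, linear, separate scale in each panel) of the 6 slc12 genes described, against salinity in ‰. Circles are replicate 1, squares are replicate 2 and the bar is the mean of the 2 libraries. The slc12a1 libraries run from 10.08 TPM at 0‰ to 190.58 at 35‰, and the slc12a8 libraries from 9.82 at 0‰ to 3.04 at 35‰.

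The sodium-dependent branch was represented by slc12a1 and slc12a2. The slc12a1 gene (ENSPREG00000009164) encodes the Na-K-2Cl cotransporter known from the kidney loop of mammals and the apical gut membrane of fish. Its TPM was 12.96 in replicate 1 and 10.08 in replicate 2 at 0‰, next 27.17 and 35.54 at 18‰, then 190.58 and 74.82 at 35‰. Both libraries of each higher salinity lay above both libraries of the lower one in all 3 comparisons. For a higher value in both libraries without overlap, the share over all genes tested was 24.7% in 18‰ versus 0‰, 18.9% in 35‰ versus 0‰ and 18.7% in 35‰ versus 18‰.

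The mean TPM of slc12a1 was 11.5 times as high at 35‰ as at 0‰, and 2.72 times as high at 18‰ as at 0‰. In limma, the fold change in 35‰ versus 0‰ was 9.69, with a 95% interval from 4.78 to 19.7 that is not adjusted for the number of genes (3.28 as log2, with a standard error of 0.43 and an adjusted p of 0.056). The log2 fold change in 35‰ versus 18‰ was 1.91 (standard error 0.43, adjusted p = 0.188 in limma), and in 18‰ versus 0‰ it was 1.37 (standard error 0.43, adjusted p = 0.667). When salinity in ‰ was used as a number in a slope, the log2 change over 35‰ was 3.27 (standard error 0.43). Its unadjusted p was the lowest of the 7897 genes, and limma's adjusted p was 0.226. By this slope 0 genes were called in limma, and 9.5% of all genes had an unadjusted p under 0.05.

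The size of the slc12a1 difference at 35‰ depended on the library. The replicates at 35‰ differed 2.55-fold in TPM, against 1.29-fold at 0‰ and 1.31-fold at 18‰. On the log2(TPM + 1) scale that gap was 1.34, and 3.15% of 3527 genes with a mean TPM of at least 10 had a gap as large at 35‰. Leaving out replicate 2 at 35‰, the lower of the 2, gave a log2 fold change in 35‰ versus 0‰ of 3.95 with an adjusted p of 0.0184 in limma, and in 35‰ versus 18‰ of 2.58 with an adjusted p of 0.0438. Both of these pass the cutoffs, and the lone library left at 35‰ was then assumed to vary like the other groups. Leaving out replicate 1 at 35‰ gave 2.61 (adjusted p = 0.0972 in limma) and 1.24 (adjusted p = 0.328), and neither passed.

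Among all listed genes, ordered by TPM, slc12a1 moved from rank 2873 and 3486 in the 0‰ libraries to rank 1687 and 1328 at 18‰ and rank 279 and 664 at 35‰. Among the 259 listed solute carriers, the genes named slc and a number, it stood at rank 75 and 90 at 0‰, next 48 and 44 at 18‰, then 6 and 21 at 35‰. Of the 197 solute carriers tested, slc12a1 had the highest log2 fold change in 35‰ versus 0‰ and in 35‰ versus 18‰, and was at rank 9 in 18‰ versus 0‰. Over all 7897 genes, its log2 fold change was at rank 5 in 35‰ versus 0‰, 30 in 35‰ versus 18‰ and 70 in 18‰ versus 0‰.

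In tissue RNA, more of the cells that express a gene cannot be told apart from more RNA per cell. Set against the summed TPM of the 10 epithelial markers, slc12a1 came to 3.23 and 1.59 TPM per 1000 marker TPM at 0‰, 3.47 and 4.13 at 18‰, and 28.3 and 10.2 at 35‰. On this measure the 35‰ libraries again lay above all others, while replicate 1 at 0‰ and replicate 1 at 18‰ stood close together. Large parts of the marker sum were anpepb, from 878 to 3233 TPM over the libraries, fabp1b.1, from 691 to 2586, and cdh17, from 912 to 2236. The markers, which also include slc15a1b and several rows named slc5a1, were not a steady scale, and the slc5a1 rows weigh on their counts and medians. All 10 had a positive log2 fold change in 18‰ versus 0‰, with a median of 0.79. Over all 7897 genes, 4654 were positive and the median was 0.06. In 35‰ versus 0‰, 8 were positive and 2 negative, with a median of 0.54, beside 3869 positive genes and a median of −0.01 over all. With all TPM values scaled to these markers, the log2 fold change of slc12a1 was 2.83 in 35‰ versus 0‰ (adjusted p = 0.062 in limma) and 0.70 in 18‰ versus 0‰ (adjusted p = 0.369), where the median over all genes was −0.42 and −0.54. This scaling was chosen after the data were seen.

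The kidney also expresses slc12a1. The 6 kidney markers listed in the table summed to 0.39 TPM in replicate 1 at 35‰, the library with the highest slc12a1, and to 10.55 in replicate 2 at 35‰. At 0‰ they summed to 0.07 and 6.89, and at 18‰ to 0 and 0.2. The markers of pancreas and of distal enterocytes given above were far lower at 35‰ than at the other salinities. Skeletal muscle markers were highest in replicate 1 at 35‰, where slc12a1 was also highest. The part of kidney, pancreas, distal enterocyte and muscle transcripts in the slc12a1 difference was not tested.

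The second sodium-dependent gene, slc12a2 (ENSPREG00000011512), encodes the cotransporter that loads chloride across the basolateral membrane of secretory epithelia. Its TPM was 2.89 and 2.26 at 0‰, next 2.31 and 3.80 at 18‰, then 1.88 and 1.99 at 35‰. The 18‰ and 0‰ libraries overlapped, and both 35‰ libraries lay below the rest. The log2 fold change in 35‰ versus 0‰ was −0.28, with a 95% interval from −0.95 to 0.39 (adjusted p = 0.739 in limma). In 18‰ versus 0‰ it was 0.16, with an interval from −0.51 to 0.83 (adjusted p = 0.995 in limma), and its sign turned when replicate 2 at 18‰ was left out or TPM was scaled to the epithelial markers.

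The balance of the 2 sodium-dependent paralogs was compared within each library. The TPM of slc12a1 was 4.48 and 4.46 times that of slc12a2 at 0‰, 11.8 and 9.35 times at 18‰, and 101 and 37.6 times at 35‰. Every library of a higher salinity thus had a larger ratio than every library of a lower one. The log2 ratio of TPM + 1 was 1.80 ± 0.06 (SD, n = 2) at 0‰, 3.01 ± 0.11 at 18‰ and 5.36 ± 0.98 at 35‰. In an exact two-sided permutation test of the covariance of this log2 ratio with the salinity step, over the 90 arrangements of the 6 libraries, p was 0.0222, the smallest this design allows. It was the only pair of paralogs tested, and the course of slc12a1 was known when the pair was chosen, so this p is not independent evidence.

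Of the potassium-chloride branch, slc12a7b and slc12a5a are described. The slc12a7b gene (ENSPREG00000012121), named for the KCC4 type of potassium-chloride cotransporter, did not reach a TPM of 1 in any library. Its values were 0.27 and 0.54 at 0‰, next 0.66 and 0.48 at 18‰, then 0.43 and 0.41 at 35‰, so the 0‰ libraries overlapped both other groups. The slc12a5a gene (ENSPREG00000011183) belongs to the KCC2 type, which in mammals lowers chloride in neurons. It was listed at 0 in 5 libraries and at 1.73 TPM in replicate 2 at 0‰, the library with the most liver transcripts, and the part of other tissue in that value was not tested. A listed value of 0 does not tell a silent gene from one that was not quantified.

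The remaining members, slc12a8 and slc12a9, are divergent members of the family. The protein of slc12a8 has been described in the mouse gut as a carrier of nicotinamide mononucleotide, a role that is debated, and that of slc12a9 has no settled transport activity. The TPM of slc12a8 (ENSPREG00000012418) was 9.82 and 9.34 at 0‰, next 8.07 and 6.23 at 18‰, then 3.04 and 4.98 at 35‰. Both libraries of each higher salinity lay below both libraries of the lower one. For a lower value in both libraries without overlap, the share over all genes tested was 12.8% in 18‰ versus 0‰, 20% in 35‰ versus 0‰ and 29% in 35‰ versus 18‰.

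The mean TPM of slc12a8 was 2.39 times as high at 0‰ as at 35‰. The log2 fold change in 35‰ versus 0‰ was −1.11, with a 95% interval from −1.76 to −0.45 that is not adjusted for the number of genes (standard error 0.28, adjusted p = 0.239 in limma), at rank 15 from the lowest among the 197 solute carriers tested. In 18‰ versus 0‰ it was −0.39 (adjusted p = 0.961 in limma) and in 35‰ versus 18‰ it was −0.72 (adjusted p = 0.369). With single libraries omitted, the value in 35‰ versus 0‰ lay between −1.39 and −0.82, and it did not pass the cutoffs in any of these fits. The 2 goblet cell markers, agr2 and SPDEF, also had their lowest sums at 35‰, and neither was called. Their summed TPM was 663 and 299 at 0‰, next 494 and 317 at 18‰, then 161 and 242 at 35‰. Most of each sum was agr2. In 18‰ versus 0‰ the log2 fold change was −0.22 for agr2 and 0.76 for SPDEF, so the 2 markers differed in direction there. In 35‰ versus 0‰, both distal enterocyte markers and 2 of the 4 pancreas markers were called lower, beside 0.177% of all genes. The median log2 fold change in that comparison was −5.13 for the 2 distal enterocyte markers and −7.68 for the 4 pancreas markers. The part of goblet cells, distal enterocytes and pancreas in the slc12a8 values was not tested.

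The TPM of slc12a9 (ENSPREG00000022539) was 2.67 and 0.81 at 0‰, next 1.06 and 0.89 at 18‰, then 1.20 and 1.22 at 35‰. The 2 libraries at 0‰ differed 3.30-fold and enclosed the values of all others. The log2 fold change in 35‰ versus 0‰ was −0.22, with a 95% interval from −1.10 to 0.66 (adjusted p = 0.852 in limma). Without replicate 1 at 0‰ it was 0.29, so its direction rested on that library. The leukocyte marker sum was also highest in that library, and its part in the slc12a9 value was not tested. In 35‰ versus 18‰ both libraries were higher without overlap, with a log2 fold change of 0.16 and a 95% interval from −0.72 to 1.04 (adjusted p = 0.888 in limma).

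Of the 4 tested genes, 1 was higher and 2 (slc12a2 and slc12a8) were lower in 35‰ versus 0‰ without overlap, beside 18.9% and 20% of all genes. In 35‰ versus 18‰, 2 were higher (slc12a1 and slc12a9) and the same 2 were lower, beside 18.7% and 29% of all genes.

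**Figure D2:**
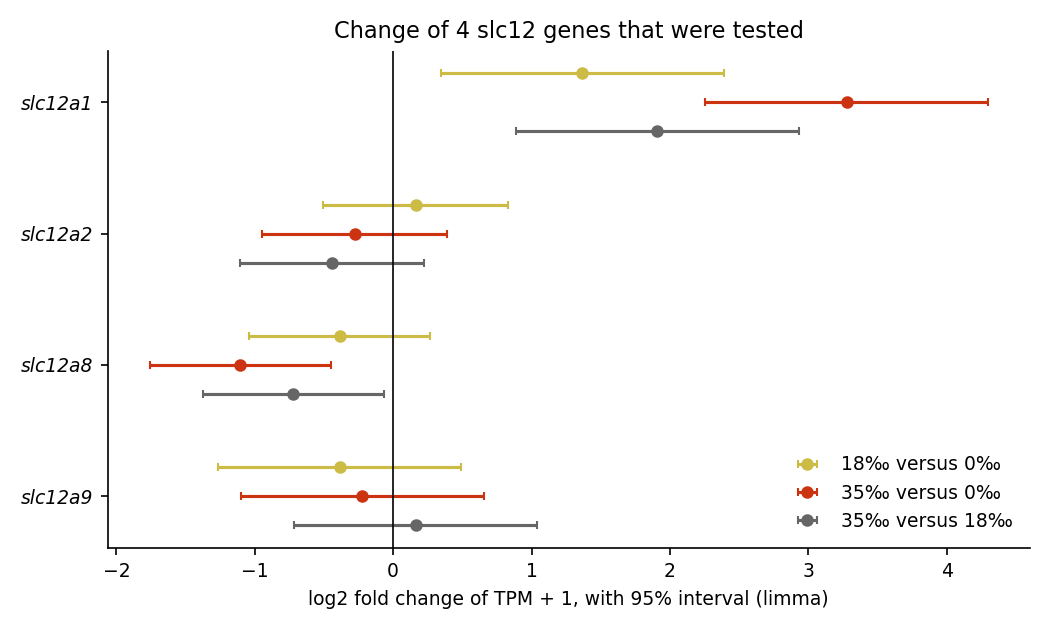
Log2 fold change of TPM + 1 (horizontal axis) of the 4 slc12 genes described that passed the filter, with 95% intervals from limma that are not adjusted for the number of genes, for the 3 comparisons. The intervals of slc12a1 lie above 0 in each comparison, those of slc12a8 lie below 0 in 35‰ versus 0‰ and 35‰ versus 18‰, and those of slc12a2 and slc12a9 span 0.

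Summed over the 6 genes described, slc12 transcripts came to 28.61 and 24.76 TPM at 0‰, 39.27 and 46.94 TPM at 18‰, then 197.13 and 83.42 TPM at 35‰. Without slc12a1 the sum was 15.65 and 14.68 at 0‰, next 12.10 and 11.40 at 18‰, then 6.55 and 8.60 at 35‰. The sum with slc12a1 and the sum without it thus stood in opposite orders across the salinities.

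The share of slc12a1 in the TPM of these 6 genes was 43.0% ± 3.24 (SD, n = 2) at 0‰, 72.5% ± 4.61 at 18‰ and 93.2% ± 4.94 at 35‰. In single libraries it was 45.3% and 40.7%, then 69.2% and 75.7%, then 96.7% and 89.7%. The share of slc12a8, the second most abundant of the 6 genes at 0‰, was 36.0% ± 2.40 at 0‰, 16.9% ± 5.15 at 18‰ and 3.76% ± 3.13 at 35‰. At 0‰ the levels of slc12a1 and slc12a8 were close, with a ratio of 1.32 and 1.08, and at 35‰ that ratio was 62.7 and 15.02. Shares of one sum move together, so a larger slc12a1 lowers the share of another gene even where that gene has a steady TPM.

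Leaving slc12a1 out of the sum removed its own effect only. The remaining shares still move together, and slc12a8 was the largest part of that sum. The share of slc12a8 among the other 5 genes was then 63.2% ± 0.620 (SD, n = 2) at 0‰, 60.7% ± 8.52 at 18‰ and 52.2% ± 8.13 at 35‰. Overlap was seen between 18‰, with 66.7% and 54.6%, and 35‰, with 46.4% and 57.9%. The share of slc12a2 was 16.9% ± 2.17, 26.2% ± 10.1 and 25.9% ± 3.93 in the same order, with the libraries at 18‰ enclosing those at 35‰. For slc12a9 it was 11.3% ± 8.16, 8.28% ± 0.674 and 16.3% ± 2.92, and the libraries at 0‰, at 17.1% and 5.52%, overlapped both other groups. The mean shares of slc12a2 and slc12a9 were thus higher at 35‰ than at 0‰, while their mean TPM was lower. Mean TPM went from 2.575 at 0‰ to 1.935 at 35‰ for slc12a2, and from 1.74 to 1.21 for slc12a9. The order of the levels at 35‰ was slc12a1, slc12a8, slc12a2, slc12a9 and slc12a7b, with slc12a5a listed at 0, and no neighbours in that order overlapped. At 0‰ slc12a2 and slc12a9 overlapped, at 2.89 and 2.26 TPM against 2.67 and 0.81.

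**Figure D3:**
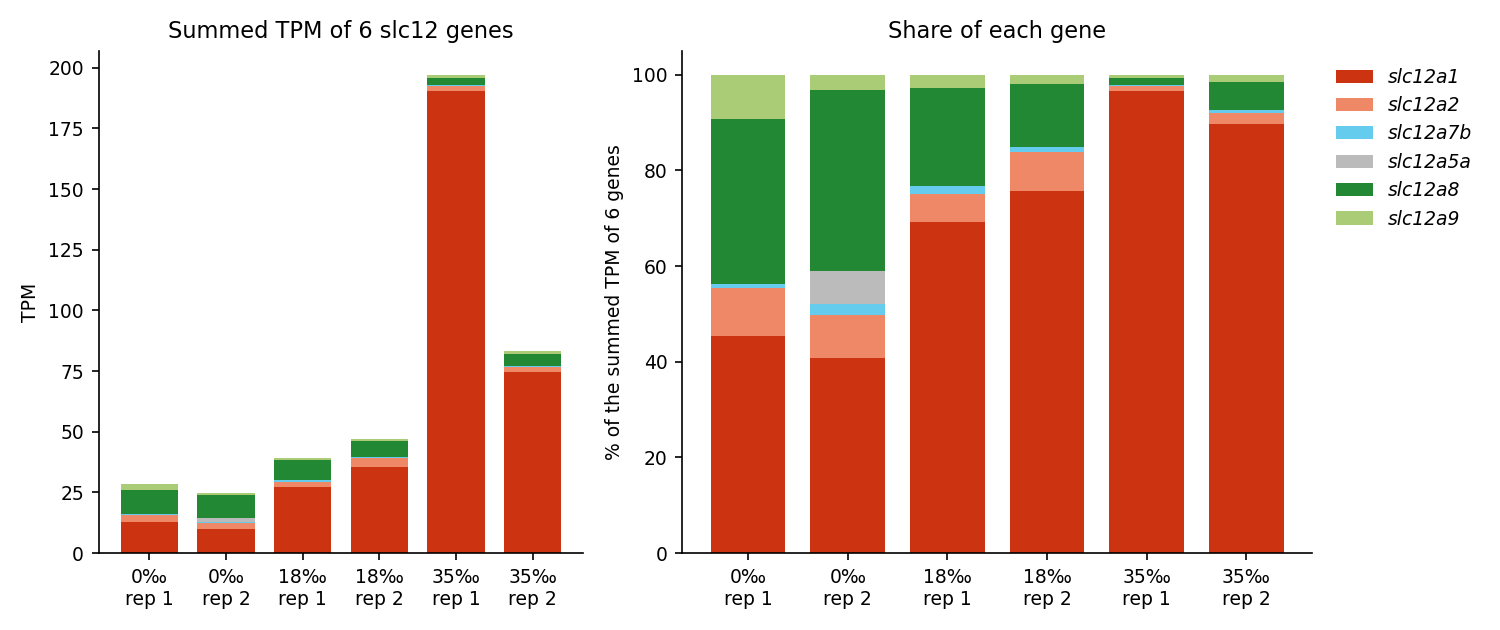
Summed TPM of the 6 slc12 genes described (left, linear axis in TPM) and the share of each gene in that sum (right, in percent), with 1 bar for each library and 1 color for each gene. The sum runs from 24.76 TPM in replicate 2 at 0‰ to 197.13 in replicate 1 at 35‰, and the slc12a1 share from 40.7% to 96.7%.

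The genes most alike to slc12a1 were sought outside the family among 3526 tested genes with a mean TPM of at least 10, by Pearson's r of log2(TPM + 1) over the 6 libraries. These values describe 6 points that share 2 libraries of each salinity and were picked as the highest of many. The 5 highest were vav2 (r = 0.993), pgm5 (0.976), atp23 (0.976), cldn15a (0.973) and slc25a55a (0.972). Each had its highest TPM in replicate 1 at 35‰, the library where slc12a1 was also highest.

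The cldn15a gene encodes a tight junction claudin, and claudin-15 of the mammalian gut forms a pore for sodium between cells. Its TPM was 206 and 220 at 0‰, next 257 and 366 at 18‰, then 643 and 403 at 35‰, so the groups did not overlap. Picking genes by their likeness to slc12a1 favours this order. Over all genes, 24.7% were higher without overlap in 18‰ versus 0‰, 18.9% in 35‰ versus 0‰ and 18.7% in 35‰ versus 18‰. The log2 fold change of cldn15a in 35‰ versus 0‰ was 1.25 (standard error 0.30, adjusted p = 0.219 in limma). The vav2 gene, which encodes a guanine nucleotide exchange factor, had TPM of 17.02 and 14.12 at 0‰, next 25.48 and 26.73 at 18‰, then 52.71 and 36.12 at 35‰, and its log2 fold change was 1.44 (SE 0.26, adjusted p = 0.124 in limma). The others encode a phosphoglucomutase-related protein of cell junctions (pgm5), a mitochondrial protease (atp23) and a mitochondrial carrier (slc25a55a). For pgm5, atp23 and slc25a55a the log2 fold changes in 35‰ versus 0‰ were 1.03, 0.42 and 1.18, all smaller than the 3.28 of slc12a1. None was called in that comparison, beside 0.19% of all genes.

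**Figure D4:**
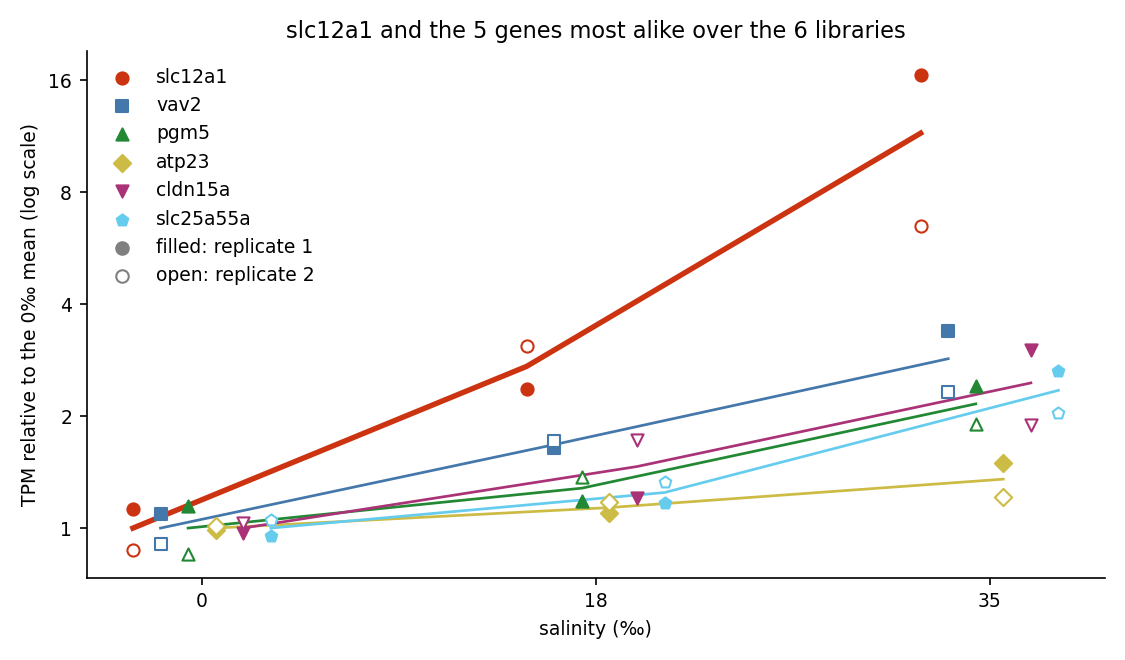
TPM of slc12a1 and of the 5 genes with the highest Pearson's r to it, relative to each gene's mean at 0‰ (vertical axis, log scale), against salinity in ‰. Filled symbols are replicate 1, open symbols are replicate 2 and lines join the means. The mean of slc12a1 at 35‰ is 11.5 times its mean at 0‰, and that of the other genes is between 1.35 and 2.85 times.

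Cotransport of salt in the gut depends on other carriers, and 17 listed genes for the sodium pump, its fxyd regulators, anion and bicarbonate exchangers, sodium-proton exchangers and carbonic anhydrases were taken as a group, of which 12 passed the filter. None was called in any comparison. Over all genes the share called was 0.0127% in 18‰ versus 0‰, 0.19% in 35‰ versus 0‰ and 0.317% in 35‰ versus 18‰. The median log2 fold change of the 12 was 0.21 in 18‰ versus 0‰ and −0.11 in 35‰ versus 0‰, beside medians over all genes tested of 0.06 and −0.01. In 35‰ versus 0‰, 2 of the 12 had both 35‰ libraries above both 0‰ libraries and 4 had both below, beside 18.9% and 20% of all genes. In 18‰ versus 0‰, 3 were higher and 3 lower without overlap, beside 24.7% and 12.8%. In 35‰ versus 18‰, 0 were higher and 4 lower, beside 18.7% and 29%. There 3 of the 12 had a positive and 9 a negative log2 fold change, with a median of −0.22, beside 3408 positive genes and a median of −0.07 over all 7897. The 18‰ and 35‰ libraries were compared with the same 0‰ libraries.

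The sodium pump subunit gene atp1b1a stood at 495 and 767 TPM at 0‰, 803 and 943 TPM at 18‰, then 1309 and 861 TPM at 35‰. From 0‰ to 35‰ its log2 fold change was 0.78 (adjusted p = 0.412 in limma). The slc26a3.2 gene, for an apical chloride-bicarbonate exchanger, stood at 11.75 and 20.08 TPM at 0‰, 17.86 and 33.51 TPM at 18‰, then 4.02 and 5.59 TPM at 35‰. From 0‰ to 35‰ the log2 fold change of slc26a3.2 was −1.51 (adjusted p = 0.24 in limma), and from 18‰ to 35‰ it was −2.15 (adjusted p = 0.108). The slc26a6 gene, for the exchanger linked to bicarbonate secretion in the marine fish gut, stood at 49.69 and 69.48 TPM at 0‰, 87.78 and 123.29 TPM at 18‰, then 70.61 and 71.68 TPM at 35‰, where its log2 fold change from 0‰ was 0.27 (adjusted p = 0.739). The carbonic anhydrase gene ca4b stood at 52.39 and 108.14 TPM at 0‰, 13.45 and 27.63 TPM at 18‰, then 31.04 and 8.23 TPM at 35‰, and its log2 fold change from 0‰ to 35‰ was −2.15 (adjusted p = 0.3 in limma). Within this group, the exchanger slc26a3.2 was thus low at 35‰, where slc12a1 was high, but it was picked after its values were seen. Of the 12 genes, 6 had a positive and 6 a negative log2 fold change in 35‰ versus 0‰.

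The group of kinases, cab39 genes and ubiquitin ligases known from mammals to act on these cotransporters, directly or not, had 12 listed genes. Of these, 10 passed the filter and none was called. The genes cab39, cab39l and cab39l1 encode proteins that bind kinases of this group and are neither kinases nor ligases. Of all genes, 0.0127% were called in 18‰ versus 0‰, 0.19% in 35‰ versus 0‰ and 0.317% in 35‰ versus 18‰. The median log2 fold change of the 10 was 0.19 for 18‰ versus 0‰ and 0.03 for 35‰ versus 0‰, beside 0.06 and −0.01 over all genes. In 18‰ versus 0‰, 3 of the 10 were higher and 0 lower without overlap, beside 24.7% and 12.8% of all genes. In 35‰ versus 0‰, 2 were higher and 1 lower, beside 18.9% and 20%. In 35‰ versus 18‰, 1 was higher and 2 lower, beside 18.7% and 29%. The oxsr1b gene, for a kinase that phosphorylates the cotransporters directly, stood at 9.29 and 10.80 TPM at 0‰, 12.38 and 12.80 TPM at 18‰, then 14.22 and 16.08 TPM at 35‰, without overlap between groups. Its log2 fold change in 35‰ versus 0‰ was 0.55, with a 95% interval from 0.03 to 1.07 (adjusted p = 0.408 in limma). Its relative stk39 was at 0.64 to 2.16 TPM, with a log2 fold change of −0.26 (adjusted p = 0.833).

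The upstream kinase wnk1a stood between 15.25 and 24.77 TPM in the 6 libraries, and wnk4b between 4.37 and 6.83. Their log2 fold changes in 35‰ versus 0‰ were 0.05 and 0.20, with 95% intervals from −0.57 to 0.67 and from −0.39 to 0.80. The 2 genes named wnk2 (listed as wnk2 and WNK2) were below the filter. SGK1, a kinase induced by salt and steroid hormones in other fish and in mammals, stood at 57.47 and 67.23 TPM at 0‰, 95.25 and 197.90 TPM at 18‰, then 104.42 and 109.24 TPM at 35‰. For SGK1 both higher salinities lay above both 0‰ libraries, which held for 24.7% of all genes at 18‰ and 18.9% at 35‰. Its log2 fold changes were 1.13 at 18‰ (adjusted p = 0.649 in limma) and 0.77 at 35‰ (adjusted p = 0.468).

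**Figure D5:**
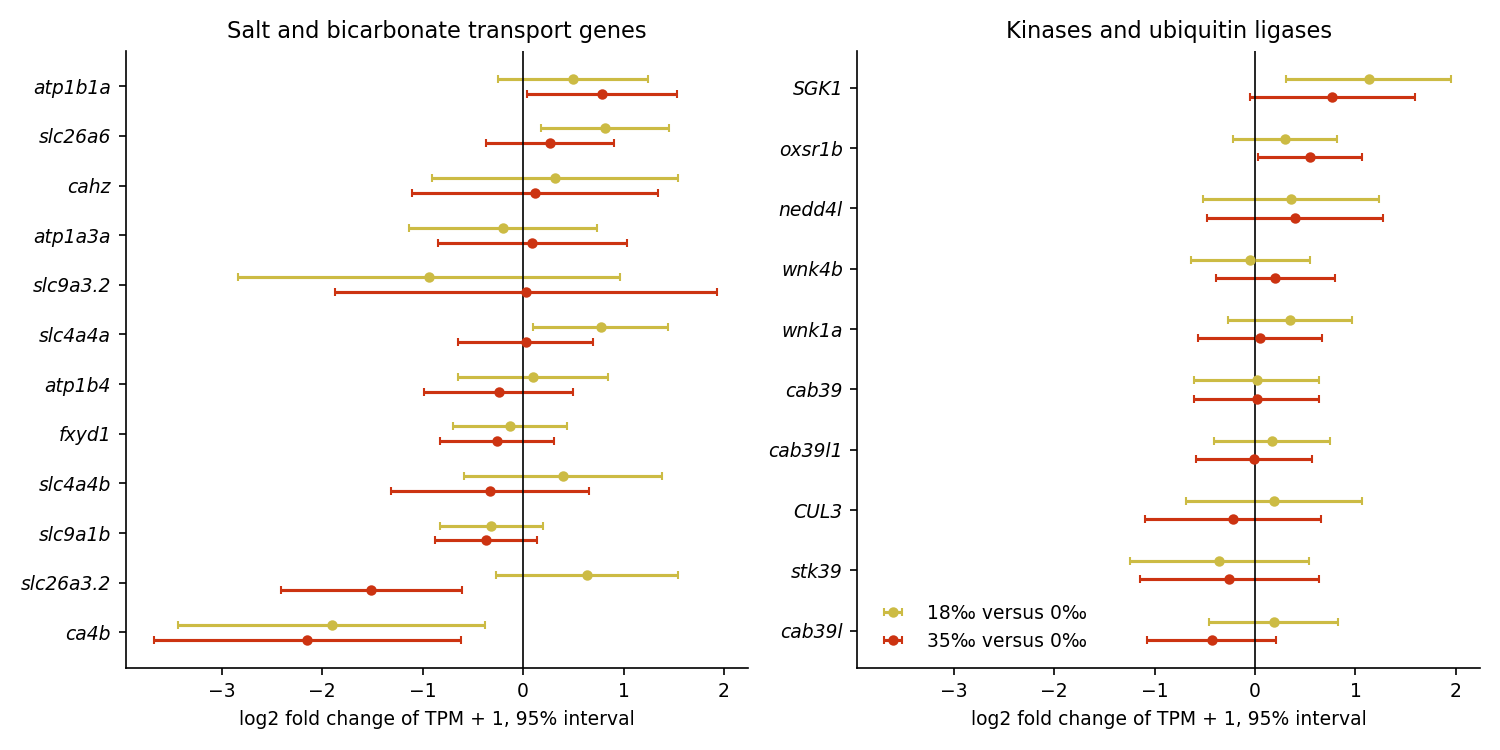
Log2 fold change of TPM + 1 (horizontal axis) in 18‰ versus 0‰ and in 35‰ versus 0‰. The 95% intervals are from limma and are not adjusted for the number of genes. The left panel holds the 12 tested salt and bicarbonate transport genes. The right panel holds the 10 tested kinases, cab39 genes and ubiquitin ligases. The values in 35‰ versus 0‰ run from −2.15 for ca4b to 0.78 for atp1b1a on the left and from −0.43 for cab39l to 0.77 for SGK1 on the right.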

How the data were processed

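The table covers 6 RNA libraries of guppy intestine. By the study's methods, STAR served for alignment and StringTie for quantification, and the TPM values were used as the authors deposited them. Versions, genome build and annotation are not given in the sources used here, so no positions are reported. The authors' DESeq2 test needs counts and was replaced by limma 3.58.1 in R 4.3.3, with a mean-variance trend, 1 fit over the 6 libraries and a pseudocount of 1. No source ties a replicate number to a shared tank or fish, and the fit had no block. The family and the gene lists were chosen with earlier results of these data known. A member of the family and some listed genes are not reported here, and sums, shares and counts leave them out, while p-values were adjusted over all genes tested. The genes named are every other slc12a gene, the 5 genes most alike to slc12a1, and, from 2 lists, the genes called and 9 chosen genes or gene patterns, of which those without a matching row were not analysed here. The pattern for kcnj1 met only other kcnj genes, which were left out. Other listed genes are given as examples, chosen after their values were seen. The limma step was first tested on simulated data for 35‰ versus 0‰. Of 200 genes given a change, 0 were called at 2-fold, 178 at 3-fold, 192 at 4-fold and 199 at 8-fold. False calls numbered 2, 12, 21 and 16 in the same order. The simulated noise was normal with the spread that limma had smoothed, and changes were given only to genes averaging about 5 TPM or more. These counts therefore cannot give the rate of recovery in the data, where slc12a1 at 9.69-fold in 35‰ versus 0‰ was not called. A gene that was not called may thus still have changed. Alternatives covered the pseudocount, filters, scaling, the trend, robust fitting, the fold cutoff, the set of libraries fitted, the omission of each library and a replicate block. Figures were drawn with matplotlib 3.10.9 in Python 3.11.15.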

Additional observations from a re-analysis of the deposited data

How the results depend on the processing

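Of 280 fold changes of slc12 genes under alternatives, 271 kept their direction and side of the cutoffs, 5 turned in sign and 4 passed the cutoffs, all 4 of slc12a1. Changes of the filter, the fold cutoff, the trend, robust fitting and the replicate block leave each fold change as it was by construction. So does leaving out libraries of a salinity that is not in the comparison. In those fits only the side of the cutoffs could differ, so the 271 overstate how stable the directions are. Besides the fits given above, slc12a1 passed in 35‰ versus 0‰ when only genes whose TPM averaged 5 or more were kept (adjusted p = 0.0401 in limma) and in the slope with TPM scaled to the epithelial markers (2.81, adjusted p = 0.0492). Its adjusted p in 35‰ versus 0‰ ran from 0.0184 to 0.274 over 18 alternatives. In 18‰ versus 0‰ slc12a2 gave −0.38 with the epithelial markers and between −0.11 and 0.43 with a library left out. For slc12a9 a library left out gave −0.90 to 0.12 in 18‰ versus 0‰, −0.73 to 0.29 in 35‰ versus 0‰ and −0.60 to 0.29 in the slope. Rescaling to a common sum moved the median of all genes in 35‰ versus 0‰ from −0.01 to −0.18.

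Counts over all genes moved more. From 1 in 18‰ versus 0‰, 15 in 35‰ versus 0‰, 25 in 35‰ versus 18‰ and 0 in the slope, they became 1 in 35‰ versus 0‰ and 4 in 35‰ versus 18‰ without a filter. With genes averaging 5 TPM or more they were 0 in 18‰ versus 0‰ and 24 in 35‰ versus 0‰. In 18‰ versus 0‰ they were 0 with median-ratio scaling, 0 with the replicate block and 0 with only the 4 libraries compared, which gave 41 in 35‰ versus 18‰. With scaling to the epithelial markers they were 3 in 18‰ versus 0‰, 41 in 35‰ versus 0‰ and 50 in the slope. With a library left out they ran from 0 to 11 in 18‰ versus 0‰, 3 to 89 in 35‰ versus 0‰, 3 to 45 in 35‰ versus 18‰ and 0 to 1 in the slope, and the cause was not tested. The slc12a1 share then ran from 40.7% to 45.3% at 0‰, 69.2% to 75.7% at 18‰ and 89.7% to 96.7% at 35‰. Leaving out 1 of 2 libraries returns the share of the other, so these ranges repeat the single libraries and test no stability.

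Deviations of same-numbered libraries from their group means correlated across genes with r of 0.06, −0.04 and 0.05. With 2 libraries per salinity, such values cannot tell whether a replicate number marks a shared tank or batch of small effect. The replicate block changed no call of a slc12 gene.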
